A study of Mus musculus with 12 samples.

Results

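The Toll-like receptor sensing genes described here were *Tlr2*, *Tlr3*, *Tlr4*, *Cd14*, *Ly96*, *Myd88*, *Ticam1*, *Irak1* and *Irak4*. They were found by gene symbol, from a list drawn up with earlier results of these data known, and all 9 were among the 39179 genes of the count table. RNA was measured in 12 libraries of mouse pancreatic stellate cells (PSCs), the fibroblast-like cells of the pancreas that give rise to part of the tumour stroma. The PSCs were an SV40-immortalised clone, labelled C57BL/6 and expressing mCherry, so that replicates are separate cultures of 1 clone rather than separate mice. They were kept for 72 h alone (called mono cells here and mono-PSC in the plots), with pancreatic cancer cells (2W cells), or with pancreatic cancer cells and macrophages (3W cells), in medium with little serum and at the same total number of cells in each flask, with 4 libraries per culture.

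The pancreatic cancer cells (PCCs) came from a mouse pancreatic tumour line and carried EGFP. The macrophages (MØs) were RAW264.7 cells, a mouse leukaemic monocyte and macrophage line, and carried TagBFP. PSCs of every culture were sorted for mCherry before lysis, so that mono, 2W and 3W cells all name sorted PSCs. The design sets 2W cells against mono cells for the presence of PCCs, and 3W cells against 2W cells for the further presence of MØs. At a fixed total number of cells, adding a cell type also lowers the number of the others, and these changes cannot be told apart.

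Toll-like receptors recognise molecules of microbes and of damaged tissue. TLR2 and TLR4 sit at the cell surface, where CD14 and MD-2, the product of *Ly96*, hand bacterial lipopolysaccharide (LPS) to TLR4, whereas TLR3 binds double-stranded RNA in endosomes. TLR2 and TLR4 signal through the adaptor MYD88, which gathers the kinases IRAK4 and IRAK1 and leads to NF-κB, whereas TLR3, and TLR4 once it is taken up, signal through TRIF, the product of *Ticam1*, and reach interferon genes as well.

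The libraries held 4561817 to 8093368 counts. Replicate 2 of 2W cells had the lowest total and the fewest genes with at least 10 counts, 10363 against 10915 to 11741 in the other libraries, and leaving it out raised the number of genes called between 3W cells and 2W cells, those with an adjusted p under 0.05, from 1230 to 2107. It was kept, and the members' values without it are given beside the results they change. Stellate cell identity was checked on *Col1a1*, *Pdgfrb* and *Vim*, which had at least 8086, 121 and 5583 counts in every library. *Pdgfrb* was lowest in replicate 2 of 2W cells. Of the 15 stellate cell and fibroblast markers looked at, others were low. *Des* had at most 25 counts in any library. *Fap* had at most 5 in a mono or 3W library and at most 48 in a 2W library. Levels are CPM, counts scaled to library size with TMM factors. Because the kit reads about 1 fragment per transcript, close to its 3′ end, CPM of different genes can be set side by side without division by length, as long as their 3′ ends are caught equally well.

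With MØs in the culture, *Tlr2*, *Tlr3*, *Cd14* and *Myd88* were higher in 3W than in 2W cells, by 8.20-fold, 2.71-fold, 2.58-fold and 2.22-fold, whereas *Tlr4*, *Ly96*, *Ticam1*, *Irak1* and *Irak4* did not pass the test. This made 4 of 9 members called, all higher (44.4%), where 5.73% of the 11513 genes tested were higher and 10.7% were called in either direction (edgeR's quasi-likelihood test, Benjamini-Hochberg adjusted p under 0.05). The median log2 fold change of the members was 0.68, against 0.0025 for all genes tested. Because the members were listed with earlier results of these data known, these contrasts describe the list and do not test the pathway. The libraries of the 2 cultures did not overlap for 5 members, those 4 and *Irak4*, and all 5 were higher in 3W cells, which held for 11.5% of all genes tested. Against mono cells, 6 of 9 members were called higher in 3W cells and none lower (66.7%), where 13.4% of 11551 genes were higher and 26.4% were called in all. These were the same 4 members with *Ly96* and *Irak1*, and their libraries did not overlap either, as in 13.7% of all genes with 3W cells higher. None of the 9 members was called between 2W cells and mono cells, that is with PCCs alone, also not at an unadjusted p under 0.05, and no member's libraries were apart, where 5.73% of genes had libraries that did not overlap, 0.991% of 11199 genes were called and 7.4% had an unadjusted p under 0.05. DESeq2 called none of them there either. Both comparisons with 3W cells share those 4 libraries, so that they are not independent of each other.

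**Figure D1:**
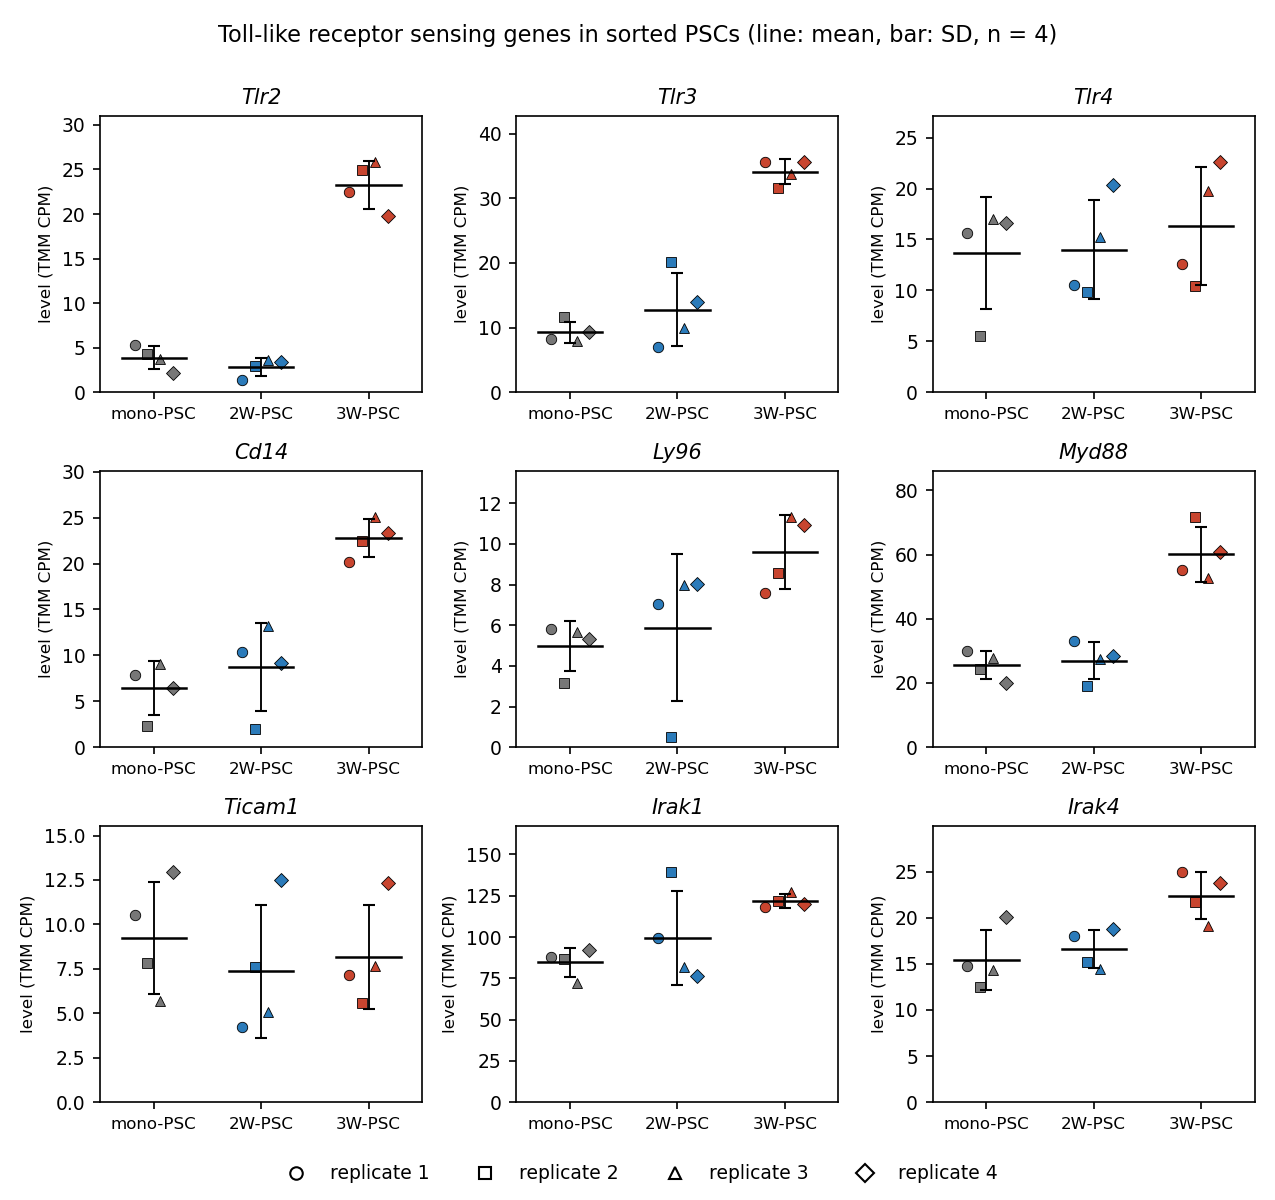
Levels of the 9 members (CPM after TMM scaling, each panel from 0 on its own scale) in every library of mono cells, 2W cells and 3W cells. Symbols stand for replicates, lines for means and bars for the SD (n = 4); the 3W points lie clear of both other cultures for *Tlr2*, *Tlr3*, *Cd14* and *Myd88* and overlap them for *Tlr4* and *Ticam1*.

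Among the receptors, *Tlr2*, the sensor of bacterial lipoproteins, had the largest fold change against 2W cells of all members. Its level was 5.27, 4.31, 3.73 and 2.18 CPM in mono cells 1 to 4. In 2W cells it was 1.41, 2.94, 3.66 and 3.37 CPM. In 3W cells it was 22.4, 24.98, 25.8 and 19.7 CPM. Every 3W library thus lay far above the 8 others, which overlapped each other and rested on 10 to 30 counts each. The mean was 3.87 ± 1.29 CPM (SD, n = 4) in mono cells, 2.85 ± 1.003 CPM (SD, n = 4) in 2W cells and 23.3 ± 2.75 CPM (SD, n = 4) in 3W cells. The log2 fold change was 3.04 (SE 0.305, adjusted p = 0.000181 in edgeR) against 2W cells and 2.60 (SE 0.277, adjusted p = 2.24e-06) against mono cells. Between 2W cells and mono cells it was -0.42 (SE 0.489, adjusted p = 0.999). *Tlr2* was called in all 15 alternative fits of both comparisons with 3W cells.

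*Tlr3*, the endosomal receptor for double-stranded RNA, was at 8.25, 11.6, 7.99 and 9.32 CPM in mono cells. In 2W cells its level spread more widely, at 7.04, 20.1, 9.87 and 14.0 CPM, the highest being replicate 2. In 3W cells it was 35.6, 31.6, 33.7 and 35.6 CPM, so that the lowest of these lay above the highest 2W library. Against 2W cells the log2 fold change was 1.44 (SE 0.290, adjusted p = 0.0106 in edgeR), and 1.73 without replicate 2 of 2W cells. Against mono cells it was 1.87 (SE 0.202, adjusted p = 2.55e-06). Under all 15 alternatives edgeR or DESeq2 called *Tlr3* in both of these comparisons. Exons of *Tlr3* lie opposite those of *Gm45542* over 381 bases, and *Gm45542* had no row of its own in the table.

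*Tlr4*, the LPS receptor, did not pass the test in any comparison. It was at 15.6, 5.48, 17.0 and 16.6 CPM in mono cells. In 2W cells it was at 10.6, 9.81, 15.3 and 20.4 CPM, and in 3W cells at 12.6, 10.4, 19.7 and 22.6 CPM. The 3 cultures overlapped throughout. Between 3W cells and 2W cells its log2 fold change was 0.22 (SE 0.319, adjusted p = 0.712 in edgeR), with an approximate 95% interval of -0.41 to 0.84, so that a rise as large as that of *Tlr2* lay outside it. The comparison with mono cells gave 0.24 (SE 0.321, adjusted p = 0.616).

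The balance of the surface receptors within each library was compared after these values had been seen. There were 0.133 to 0.300 *Tlr2* counts for each *Tlr4* count in 2W cells, 0.131 to 0.786 in mono cells and 0.874 to 2.40 in 3W cells. This ratio does not depend on how libraries are scaled, and the 3W libraries overlapped neither other culture. Its log2 difference was 2.90 between 3W cells and 2W cells (two-sided exact permutation p = 0.0286, the lowest 4 against 4 libraries can reach, or 0.0714 once adjusted over 15 such tests). *Tlr4* had the higher count of the pair in every mono and 2W library, and *Tlr2* in 3 of 4 3W libraries. For the ratio of the endosomal receptor *Tlr3* to *Tlr4*, the 3W libraries overlapped both other cultures. Its log2 difference was 1.31 from 2W cells and 1.57 from mono cells (exact permutation p = 0.0857 for each, adjusted 0.161).

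Windows of 300 bases around the RefSeq transcript starts (assembly GRCm38.p6, 250 bases before the start and 50 after) are shown for *Tlr2*, *Tlr3* and *Myd88*, members called higher in both comparisons with 3W cells, to place the known response motifs in their promoters. An entry was found for 6 of 9 members, and there was none for *Tlr4*, *Cd14* and *Ly96*. The windows lie at chr3:83841559-83841858, chr8:45410331-45410630 and chr9:119339969-119340268, all on the minus strand, and capitals mark the matches described after them.
Tlr2: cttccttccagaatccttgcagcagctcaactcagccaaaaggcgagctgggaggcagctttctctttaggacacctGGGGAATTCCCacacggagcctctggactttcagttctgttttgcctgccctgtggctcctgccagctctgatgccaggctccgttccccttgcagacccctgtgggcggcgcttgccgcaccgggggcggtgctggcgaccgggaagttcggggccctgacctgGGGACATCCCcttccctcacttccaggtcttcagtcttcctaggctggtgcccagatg
Tlr3: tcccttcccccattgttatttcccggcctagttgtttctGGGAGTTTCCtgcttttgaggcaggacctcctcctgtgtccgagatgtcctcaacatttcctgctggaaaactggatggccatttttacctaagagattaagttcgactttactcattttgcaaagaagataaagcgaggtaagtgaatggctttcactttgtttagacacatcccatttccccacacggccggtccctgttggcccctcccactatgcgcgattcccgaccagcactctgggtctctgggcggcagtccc
Myd88: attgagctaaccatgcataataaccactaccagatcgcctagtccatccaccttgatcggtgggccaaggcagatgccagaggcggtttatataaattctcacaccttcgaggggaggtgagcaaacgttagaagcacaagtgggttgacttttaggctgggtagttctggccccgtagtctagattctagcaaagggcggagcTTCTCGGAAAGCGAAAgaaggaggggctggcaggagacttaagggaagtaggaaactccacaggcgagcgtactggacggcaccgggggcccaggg

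The motifs searched on both strands were the NF-κB consensus, the interferon-stimulated response element core GAAANNGAAA, the AP-1 site TGANTCA and the STAT palindrome TTCNNNGAA. The *Tlr2* window held the NF-κB consensus at 3 places, a pair that overlap and begin 173 and 172 bases before the start, and 1 that begins 8 bases before it. In the *Tlr3* window it began 211 bases before the start. The *Myd88* window held no NF-κB match, but it held the interferon response core 40 bases before the start, overlapping a STAT palindrome that begins 46 bases before it. *Irak1*, called against mono cells but not against 2W cells, had the NF-κB consensus 18 bases before its first start, and the windows of *Ticam1* and *Irak4* held none of the 4 motifs. AP-1 matched in none of the 6 members searched. Of all 32851 windows of this length, 8.46% held the NF-κB consensus, 3.44% the interferon response core, 7.81% AP-1 and 8.3% the STAT palindrome. A match describes letters only, and binding was not measured here.

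Of the LPS co-receptors, *Cd14* was called against both other cultures. *Cd14*, which delivers LPS, was at 7.90, 2.35, 9.05 and 6.41 CPM in mono cells. It was at 10.4, 1.96, 13.2 and 9.15 CPM in 2W cells and at 20.2, 22.4, 25.1 and 23.4 CPM in 3W cells. Replicate 2 was the lowest in mono cells and in 2W cells, and no 3W library overlapped either culture. Means were 6.43 ± 2.93, 8.69 ± 4.79 and 22.8 ± 2.04 CPM (SD, n = 4 each). The log2 fold change against 2W cells was 1.37 (SE 0.394), with an adjusted p of 0.0481 in edgeR, close to the threshold. *Cd14* was called in 7 of 14 alternatives. These 7 include the prior count of 2, which changes fold changes only and could not end a call. Leaving out any single library except replicate 2 or replicate 3 of 2W cells ended the call, with adjusted p up to 0.124, and the replicate block gave 1.53 (adjusted p = 0.0679). Without replicate 2 of 2W cells the difference was smaller, 1.06, and its adjusted p was 0.00299. Against mono cells it was 1.81 (SE 0.299, adjusted p = 0.000242) and all 15 alternatives called it.

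*Ly96*, whose product MD-2 binds LPS on TLR4, stayed under 12 CPM. Its level was 5.79, 3.13, 5.68 and 5.32 CPM in mono cells. It was 7.04, 0.491, 7.96 and 8.03 CPM in 2W cells, where replicate 2 had only 2 counts. In 3W cells it was 7.57, 8.56, 11.3 and 10.9 CPM. The 3W libraries overlapped 2W cells but not mono cells. The log2 fold change was 0.68 (SE 0.512, adjusted p = 0.439 in edgeR) against 2W cells and 0.32 without their replicate 2. Against mono cells it was 0.93 (SE 0.303, adjusted p = 0.0307), a call that 9 of 15 alternatives kept. It ended without replicate 2, 3 or 4 of 3W cells or replicate 2 or 4 of mono cells, with adjusted p up to 0.0856, and in one fit of all 12 libraries (adjusted p = 0.196). *Cd14* counts were 2.14 to 2.67 times those of *Ly96* in 3W cells, 1.14 to 4 times in 2W cells and 0.75 to 1.59 times in mono cells, a log2 difference of 0.39 between 3W cells and 2W cells (exact permutation p = 0.429).

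Of the adaptors, *Myd88*, which TLR2, TLR4 and the IL-1 receptor family share, was at 30.02, 24.3, 27.7 and 19.96 CPM in mono cells. It was at 32.9, 19.1, 27.4 and 28.4 CPM in 2W cells and at 55.3, 71.7, 52.6 and 60.7 CPM in 3W cells. The lowest 3W library lay well above all others, and the other 2 cultures overlapped. The log2 fold change was 1.15 (SE 0.201, adjusted p = 0.00522 in edgeR) against 2W cells and 1.23 (SE 0.181, adjusted p = 7.35e-05) against mono cells, and *Myd88* was called in all 15 alternatives of both. Against 2W cells without their replicate 2 it was 1.02. Exons of *Myd88* lie opposite those of *Acaa1a*, a peroxisomal thiolase gene, over 290 bases, and 18.6% of the 75-base windows at its 3′ ends also occur in another gene. Whether reads were counted by strand is not stated. *Acaa1a* had means of 47.0 CPM in 3W cells and 60.3 CPM in 2W cells, with a log2 fold change of -0.35 (adjusted p = 0.447).

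*Ticam1*, the gene of the TRIF adaptor of TLR3 and TLR4, was at 10.5, 7.83, 5.68 and 12.9 CPM in mono cells. In 2W cells it was at 4.22, 7.60, 5.09 and 12.5 CPM, and in 3W cells at 7.17, 5.55, 7.64 and 12.3 CPM. The cultures overlapped, and replicate 4 was the highest in each. Its difference from 2W cells was 0.16 in log2 fold change (SE 0.392, adjusted p = 0.839 in edgeR), and its sign turned without replicate 4 of 3W cells or replicate 1 of 2W cells. The comparison with mono cells gave -0.20 (adjusted p = 0.687). *Myd88* counts were a geometric mean of 7.62 times those of *Ticam1* in 3W cells, 3.93 times in 2W cells and 2.85 times in mono cells. The 3W ratios overlapped those of 2W cells (exact permutation p = 0.2) and did not overlap those of mono cells (p = 0.0286, adjusted 0.0714). The gap to mono cells was narrow, with a lowest 3W ratio of 4.916 and a highest mono ratio of 4.875.

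Neither IRAK kinase was called between 3W cells and 2W cells. *Irak1*, the kinase released from the MYD88 complex, was at 87.8, 86.8, 72.1 and 92.0 CPM in mono cells. It was at 99.3, 139, 82.0 and 76.4 CPM in 2W cells and at 118, 122, 127 and 120 CPM in 3W cells. Only replicate 2 of 2W cells, the highest of all 12 libraries, was not below the 3W libraries. Set against 2W cells, the log2 fold change was 0.30 (SE 0.197, adjusted p = 0.371 in edgeR), and without that library 0.51 (adjusted p = 0.0201). Against mono cells it was 0.52 (SE 0.141, adjusted p = 0.0116), lost in 1 of 15 alternatives.

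*Irak4*, the kinase that acts before IRAK1, was at 14.7, 12.5, 14.4 and 20.1 CPM in mono cells. It was at 18.02, 15.2, 14.5 and 18.8 CPM in 2W cells and at 24.97, 21.7, 19.1 and 23.8 CPM in 3W cells. The 3W and 2W libraries did not overlap, but the gap between them was narrow. Its log2 fold change from 2W cells was 0.43 (SE 0.195), with an unadjusted p of 0.0494 and an adjusted p of 0.189 in edgeR. The comparison with mono cells gave 0.52 (SE 0.211, adjusted p = 0.0772). Exons of *Irak4* face those of *Twf1* over 395 bases, whose log2 fold change against 2W cells was 0.22 (adjusted p = 0.416).

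The number of *Myd88* counts for each *Irak1* count was 0.413 to 0.589 in 3W cells, 0.137 to 0.372 in 2W cells and 0.217 to 0.384 in mono cells. The 3W libraries again stood above both, by a log2 difference of 0.84 from 2W cells and 0.71 from mono cells (exact permutation p = 0.0286 for each, adjusted 0.0714).

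**Figure D2:**
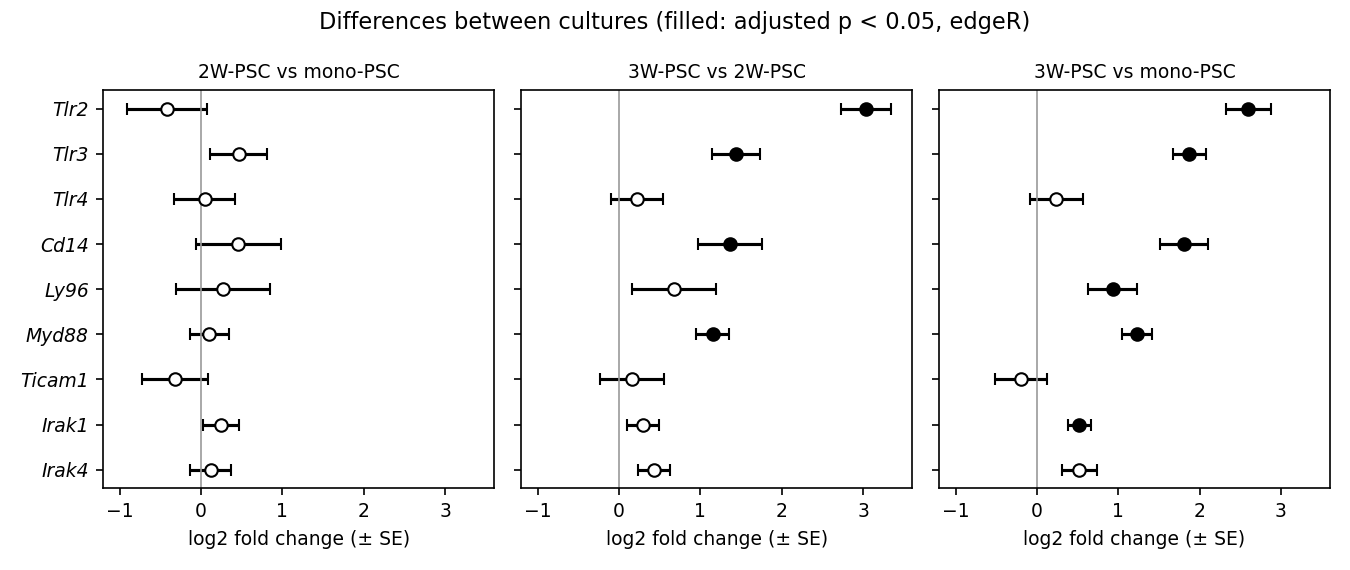
Log2 fold changes of the 9 members with their standard errors in each pair of cultures, from edgeR with 4 libraries per culture; filled points had an adjusted p under 0.05. *Tlr2* lies furthest to the right in both comparisons with 3W cells, at 3.04 and 2.60, and no point is filled between 2W cells and mono cells.

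Ordered by mean CPM, *Irak1* was the highest member in all 3 cultures, at 84.6 ± 8.67 CPM in mono cells, 99.3 ± 28.4 CPM in 2W cells and 122 ± 4.03 CPM in 3W cells (SD, n = 4), and its libraries overlapped those of no other member. *Myd88* came next in each culture. In 3W cells, *Tlr3* at 34.1 ± 1.91 CPM (SD, n = 4) was clear of *Myd88* above it and of *Tlr2* below it. *Tlr2*, *Cd14*, *Irak4*, *Tlr4*, *Ly96* and *Ticam1* followed, each overlapping the next. *Tlr2* was the lowest of the 9 in mono cells and in 2W cells, where it overlapped its neighbour *Ly96*, and only *Irak1*, *Myd88* and *Tlr3* were above it in 3W cells.

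The genes whose pattern over the 12 libraries came closest to each member were found as the smallest root mean square difference in log2 CPM, each gene centred on its own mean, among 8693 genes. All members share the libraries and their depth with these genes, and the values are descriptions. For *Tlr2* they were *Cmpk2*, at 0.441, *Sod3* and *Gbp2*, against a root mean square of 1.37 of *Tlr2* about its own mean. For *Tlr3* they were *Tnip1*, at 0.248, *Uba7* and *Ly6e*, against 0.874. *Cd14* was closest to *Junb*, at 0.221, *Cd44* and *Tmtc3*, against 1.11. *Myd88* was closest to *Aftph*, at 0.197, *Tor1aip1* and *Dpy19l1*, against 0.610. The nearest gene to *Ly96* was *Unc93b1*, at 0.244 against 0.997. *Irak1* and *Irak4*, which varied least, lay nearest to *Eftud2*, at 0.079 against 0.303, and to *Top1*, at 0.112 against 0.299. For *Tlr4* the nearest gene was *Pigu*, at 0.314 against 0.537, and for *Ticam1* it was *1700021K19Rik*, at 0.262 against 0.501.

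The other genes of the pathway were taken as 4 lists, namely other receptors with their accessory proteins, other adaptors and IRAKs, downstream kinases, ubiquitin ligases and interferon regulatory factors, and brakes on signalling. Of their 67 genes, 49 passed the count filter for 3W against 2W cells, and 14 were called higher and 0 lower. Over all genes tested there, 5.73% were higher and 10.7% were called. Between 3W cells and mono cells, 22 of 48 were called higher and 1 lower, where 13.4% of all genes were higher and 26.4% were called. Between 2W cells and mono cells 1 of 44 was called, higher, where 0.991% of all genes were called. These shares also apply to the counts of each list below. The lists, too, were drawn up with earlier results of these data known, so the counts describe them and do not test the pathway.

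Of the other receptors and accessory proteins, 6 of 19 were tested between 3W cells and 2W cells, and only *Lbp* was called. *Lbp* encodes the LPS-binding protein that passes LPS to CD14. It was at 8.63, 11.0, 4.58 and 8.44 CPM in 3W cells 1 to 4, while no 2W or mono library had more than 1 count. Set against a floor of 3 counts per library, it was at least 15.4-fold higher than in 2W cells (adjusted p = 0.000197 in edgeR) and at least 16.2-fold higher than in mono cells. *Tlr1* and *Tlr6*, the partners with which TLR2 pairs, had at most 4 and 12 counts in any library and could not be tested. *Tlr8* and *Tlr9* had no count in any library, which allows up to 3 counts in each, and counting error only is covered by that limit. *Unc93b1*, the chaperone of endosomal TLRs, was called higher in 3W cells than in mono cells (log2 fold change 0.83, adjusted p = 0.0491), and against 2W cells it was 0.60 (adjusted p = 0.515). *Rftn1*, a raft protein described in TLR3 and TLR4 uptake, was called higher than in mono cells in 2W cells (1.49, adjusted p = 0.0196) and in 3W cells (1.75, adjusted p = 5.88e-06).

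None of the 3 other adaptors and IRAKs tested of 6 was called between 3W cells and 2W cells by edgeR, and 0 had an unadjusted p under 0.05. *Tirap*, the sorting adaptor that brings MYD88 to TLR2 and TLR4, had means of 11.0 ± 2.89 CPM in mono cells, 15.4 ± 4.19 CPM in 2W cells and 22.3 ± 4.33 CPM in 3W cells (SD, n = 4). Its log2 fold change was 0.55 (adjusted p = 0.196) against 2W cells and 1.02 (adjusted p = 0.00475) against mono cells, where it was called. *Ticam2*, the matching adaptor for TRIF, had no count in any 2W or 3W library and at most 4 in a mono library.

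Of the downstream list, 2 of 20 genes tested were called higher in 3W cells than in 2W cells and 0 lower. This was near the share over all genes tested, of which 5.73% were higher and 10.7% were called. *Irf7*, an interferon regulatory factor, rose from 56.2 ± 16.3 to 151 ± 24.1 CPM (SD, n = 4; log2 fold change 1.43, adjusted p = 0.00222 in edgeR). *Ikbke*, a kinase of the interferon branch, had 26.7, 21.6, 7.76 and 11.6 CPM in 3W cells, of which replicate 3 lay within the 2W range of 3.10 to 9.32 CPM (1.83, adjusted p = 0.0319). *Traf6*, the ubiquitin ligase after the IRAKs, was at 8.03 ± 2.13 CPM in 3W cells and 7.17 ± 1.25 CPM in 2W cells (SD, n = 4; 0.16, adjusted p = 0.767). Against mono cells, 6 of 20 were called higher, *Traf3*, *Ikbke*, *Chuk*, *Irf5*, *Irf7* and *Map2k6*, where 13.4% of all genes tested were higher.

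Of these 4 lists, the brakes held the most called genes. Of 20 tested of 21, 11 were called higher in 3W cells than in 2W cells and 0 lower, and the list's median log2 fold change was 1.31. Over all genes tested, 5.73% were higher and the median was 0.0025. *Tnfaip3*, which removes ubiquitin chains from signalling proteins after the receptors, was at 28.02, 14.1, 42.3 and 12.6 CPM in 3W cells and at no more than 2.87 CPM in any 2W library (log2 fold change 3.91, adjusted p = 0.00115 in edgeR). *Il1rl1*, the IL-33 receptor, listed as a brake because it can hold back MYD88, had 59.0 ± 16.6 CPM against 4.09 ± 3.67 CPM (SD, n = 4; 3.81, adjusted p = 0.00084). *Tnip3*, a partner of the *Tnfaip3* product, had 8.90 ± 3.20 CPM against 0.680 ± 0.782 CPM (SD, n = 4; 3.81, adjusted p = 0.0063), and against mono cells it was at least 17.7-fold higher. *Bcl3*, a nuclear IκB protein, lay between 16.5 and 19.4 CPM against 1.27 to 4.42 CPM (3.12, adjusted p = 0.000701). Others of the list did not pass. *Sigirr* had a log2 fold change of -0.96 (adjusted p = 0.25), *Atf3* of -0.55 (adjusted p = 0.492) and *Dusp1* of -0.50 (adjusted p = 0.552). Against mono cells, 12 of 19 brakes tested were called higher and 1, *Atf3*, lower, at -1.53 (adjusted p = 0.00311). Between 2W cells and mono cells edgeR called 0 of 16, with 1 at an unadjusted p under 0.05.

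**Figure D3:**
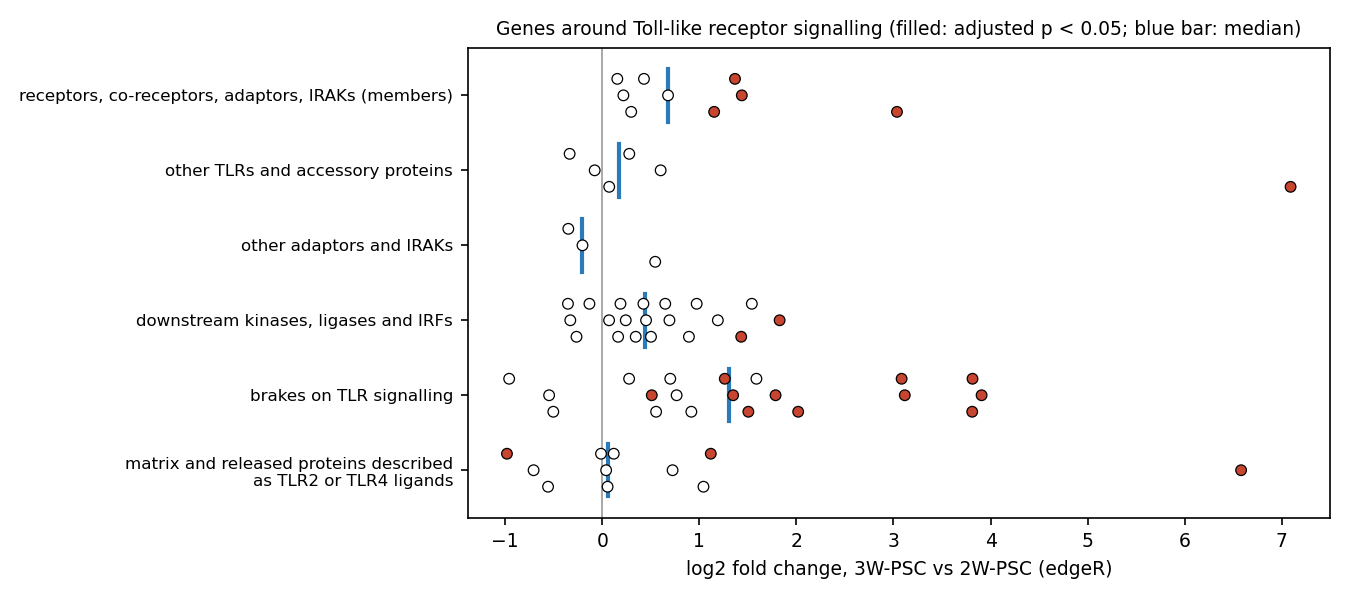
Log2 fold changes between 3W cells and 2W cells from edgeR for the members, 4 lists of other pathway genes and a list of proteins described as TLR2 or TLR4 ligands; each point is a gene tested, filled where the adjusted p was under 0.05, and the blue bar is the list's median. The brakes hold 11 filled points of 20, the members 4 of 9 and the other adaptors and IRAKs 0 of 3, and the point furthest right is *Lbp*, whose fitted value rests on near-zero counts in 2W cells.

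Proteins of the matrix and the secretome that have been described as ligands of TLR2 or TLR4 did not move in 1 direction. Between 3W cells and 2W cells, 2 of 11 tested were called higher, 1 was called lower, and the median was 0.055. Over all genes tested, 5.73% were called higher and 10.7% in either direction. *Vcan*, the gene of the proteoglycan versican, rose from 30.2 ± 6.18 to 65.4 ± 5.11 CPM (SD, n = 4; log2 fold change 1.12, adjusted p = 0.00413 in edgeR). *Saa3*, an acute-phase serum amyloid gene, was at 236 ± 117 CPM in 3W cells and 2.52 ± 1.07 CPM in 2W cells (SD, n = 4). *Dcn*, the gene of decorin, was lower in 3W than in 2W cells by 0.98 on the log2 scale (adjusted p = 0.0262 in edgeR). In 2W cells it was 0.95 above mono cells (adjusted p = 0.0329), and 3W cells against mono cells gave -0.051 (adjusted p = 0.884). Its 3W libraries 1 to 4 were at 163, 165, 86.2 and 86.4 CPM.

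The study describes the sort as taking mCherry-positive cells without EGFP or TagBFP, a gate meant to leave out PCCs and MØs. RNA of MØs was looked for, because MØs are known to express *Tlr2*, *Tlr4*, *Cd14*, *Ly96* and *Myd88*. Of 19 macrophage markers in the table, 18 had a count in 3W cells, 9 in 2W cells and 8 in mono cells. Their summed level was 26.7, 18.6, 26.6 and 68.7 CPM in 3W cells 1 to 4, 4.93 to 13.0 CPM in 2W cells and 2.46 to 8.83 CPM in mono cells, so that it moved with the members called in 3W cells. Of the defining genes, *Emr1*, the gene of F4/80, had no count anywhere. *Ptprc*, which encodes CD45, had 0, 0, 6 and 20 counts in 3W cells 1 to 4 and *Tyrobp* 2, 4, 0 and 22, and neither had a count in another culture. *Csf1r* had 15 to 27 counts in 3W cells and 1 to 28 in 2W cells, and *Cd68* 11 to 35 and 0 to 15. *Mpeg1* and *Cd53* were called higher in 3W cells than in 2W cells, at means of 6.98 and 5.37 CPM and with at least 38 and 36 counts in every 3W library.

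Among the 3W libraries, the macrophage sum was lowest in replicate 2 and highest in replicate 4. *Tlr3*, *Tlr4* and *Ticam1* were also lowest in replicate 2, *Tlr4* and *Ticam1* were highest in replicate 4, and *Tlr3* was at 35.6 CPM in replicates 1 and 4. *Tlr2* was lowest in replicate 4 and highest in replicate 3, *Cd14* was lowest in replicate 1 and highest in replicate 3, and *Myd88* was lowest in replicate 3 and highest in replicate 2. Without replicate 4 of 3W cells, the log2 fold change against 2W cells was 3.11 for *Tlr2* (adjusted p = 0.000942 in edgeR), 1.42 for *Tlr3* (adjusted p = 0.0355) and 1.15 for *Myd88* (adjusted p = 0.0197). For *Cd14* it was 1.36 (adjusted p = 0.113). The part of MØ RNA in the members' levels was not tested. In bulk RNA of sorted cells, fewer cells of a type and less RNA per cell cannot be told apart.

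**Figure D4:**
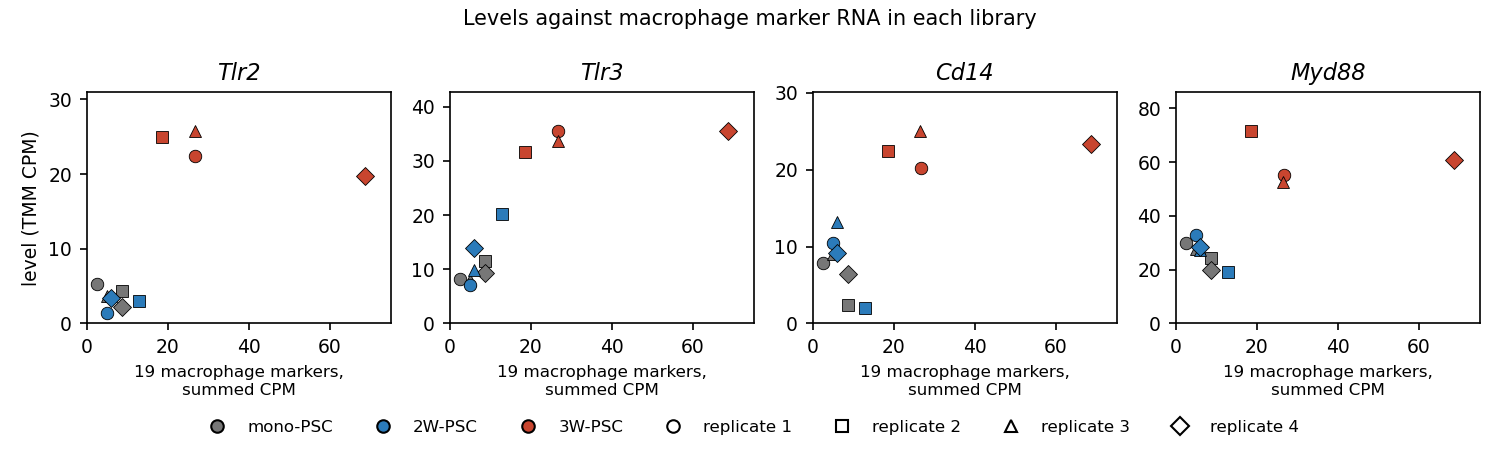
Level of *Tlr2*, *Tlr3*, *Cd14* and *Myd88* (CPM, vertical axes) against the summed CPM of 19 macrophage markers (horizontal axes) in each library, coloured by culture with 1 symbol per replicate. The 3W libraries lie to the right of all others, and the one furthest right, replicate 4 at 68.7 CPM, has the lowest *Tlr2* level of its culture and a *Tlr3* level of 35.6 CPM, as replicate 1 has. Its *Cd14* level of 23.4 CPM and *Myd88* level of 60.7 CPM lie within the range of the other 3W libraries.

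Part of the epithelial markers, looked at for RNA of PCCs, was higher in both co-cultures. Of 15 epithelial markers, the summed level was 2.49 to 10.4 CPM in mono cells, 77.1 to 151 CPM in 2W cells and 54.2 to 95.5 CPM in 3W cells, and 5 of 6 tested were called higher in 2W cells than in mono cells, where none of the members was called. Against mono cells, 5 of 6 were called higher in 3W cells too, where 6 members were called, and between 3W cells and 2W cells edgeR called 0 of 6, with 2 at an unadjusted p under 0.05. Of the defining genes, *Epcam* had no count in 2W cells and at most 3 in a 3W and 1 in a mono library. *Cdh1* had 63 to 214 counts in 2W cells, 50 to 149 in 3W cells and at most 5 in mono cells. *Krt19* had 51 to 173, 90 to 139 and at most 7. Of the 15 markers, 6 had no count in any 2W library. The source of this epithelial RNA and its part in the members' levels were not tested. Stellate cell and fibroblast markers summed to 14490 to 24092 CPM in 2W cells and 8491 to 10475 CPM in 3W cells. Of 14 tested, 7 were called lower and 2 higher in 3W cells than in 2W cells, where 10.7% of all genes tested were called. Most thus went opposite in direction to the called members, and the part of this shift in the members' levels was not tested. Called with the largest log2 fold changes were *Fap* (-3.88), *S1pr3* (1.90), *Col3a1* (-1.74) and *Sparc* (-1.48).

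On GRCm38, by GENCODE release M21, *Tlr2* lies on chromosome 3 from 83836272 to 83841767, *Tlr3* on chromosome 8 from 45395665 to 45411080 and *Tlr4* on chromosome 4 from 66827584 to 66930284. *Cd14* lies on chromosome 18 from 36725067 to 36726798 and *Ly96* on chromosome 1 from 16688051 to 16709611. *Myd88* lies on chromosome 9 from 119335934 to 119341411, *Ticam1* on chromosome 17 from 56269319 to 56276786, *Irak1* on chromosome X from 74013914 to 74023918 and *Irak4* on chromosome 15 from 94543643 to 94581815. The 9 genes thus lie on 9 chromosomes. *Tlr2*, *Tlr4*, *Cd14*, *Ly96* and *Ticam1* shared no exonic base with another gene and no 75-base window at their 3′ ends.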

How the data were processed

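RNA of 12 PSC libraries, 4 per culture, was analysed. The authors prepared QuantSeq 3′ FWD libraries, read single ends of 75 bases, checked and trimmed them, mapped them with STAR to GRCm38 and made gene counts with featureCounts on Ensembl genes (FastQC for the checks). The deposited values are raw counts, whole numbers per gene with differing totals, where the study's methods call the counts normalised. Molecular identifiers and the strand setting are not given in the sources used here, so PCR copies count as reads and depth covers counting error only.

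Here these counts were TMM-scaled and filtered with filterByExpr. Each pair of cultures (8 libraries, no block) was put through the quasi-likelihood test of edgeR 4.0.16 (R 4.3.3). Benjamini-Hochberg adjustment ran over every gene tested, and called means an adjusted p under 0.05. Fold changes use a prior count of 0.125. Levels are TMM-scaled CPM. For single values, exact permutation tests on both tails were used. Approximate 95% intervals are 1.96 SE either side.

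Alternatives were DESeq2 size factors, no filter, a minimum of 10 counts in each library, 1 fit of all 12 libraries, a block for the replicate number, DESeq2 1.42.0, a prior count of 2 and each library left out in turn. The prior count of 2 changes fold changes but not p-values, so it could not alter a call, although it is counted among the alternatives. Scripts were tested on simulated counts. Replicate numbers came from the labels. Deviations from the culture means correlated between same-numbered 2W and mono libraries with r from 0.154 to 0.499 over 8700 genes, so the numbers pair the libraries in that comparison, where the block changed no call of a member. The labels call the replicates biological. Duplicates were looked for and none was found.

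The members and lists were chosen with earlier results of these data known. Besides the members, the text names up to 4 genes per list with the largest fold change among those called between 3W cells and 2W cells with at least 3 CPM in a culture, *Tirap*, *Ticam2*, *Traf6*, *Tlr1*, *Tlr6* and *Lbp* whatever their values, and the nearest genes by likeness. *Unc93b1*, *Rftn1*, *Tlr8*, *Tlr9*, *Sigirr*, *Atf3*, *Dusp1*, *Des*, the neighbours *Acaa1a*, *Twf1* and *Gm45542*, genes called only against mono cells and the ratios within libraries were chosen after values were seen. The genotype of the PCC line is not reported here. Promoter windows come from RefSeq, positions from GENCODE.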

Additional observations from a re-analysis of the deposited data

Results flagged for a closer look

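In 2 of 27 sets of 4 libraries, 1 for each member and culture, a single library stood apart by Dixon's criterion, which flags about 1 in 20 sets by chance. *Tlr4* was at 5.48 CPM in replicate 2 of mono cells, where the other libraries had 15.6 to 17.0 CPM, a gap of 0.877 of the range. *Ly96* was at 0.491 CPM in replicate 2 of 2W cells, where the others had 7.04 to 8.03 CPM, a gap of 0.869 of the range.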

How the results depend on the processing

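*Tlr2*, *Tlr3* and *Myd88* kept their calls in both comparisons with 3W cells under all alternatives run. Between 3W cells and 2W cells, the replicate block gave 752 genes called against 1230, and *Cd14* at 1.53 was no longer called (adjusted p = 0.0679 in edgeR). Same-numbered libraries of these cultures correlated with r from -0.062 to 0.227, and 4 of 8 libraries were closest to their own number. Whether the numbers pair the libraries in this comparison cannot be told from these values. Single libraries left out gave 497 to 2107 genes called, *Cd14* at 1.06 to 1.62, *Irak1* at 0.18 to 0.51 and *Ticam1* at -0.11 to 0.54, with -0.11 without replicate 4 of 3W cells and -0.052 without replicate 1 of 2W cells. Between 2W cells and mono cells, genes called numbered 177 with no filter, 57 with at least 10 counts in every library, 262 in one fit of 12 libraries and 277 in DESeq2, against 111, and 61 to 233 with a library left out. *Myd88* there turned to -0.026 and -0.014 without replicate 1 of 2W cells and replicate 4 of mono cells (range to 0.22). *Tlr4* turned to -0.0029, -0.20 and -0.23 without replicates 3 and 4 of 2W cells and replicate 2 of mono cells (range to 0.17). Between 3W cells and mono cells, one fit of 12 libraries gave *Ly96* at 0.94 (adjusted p = 0.196) and *Irak1* at 0.52 (adjusted p = 0.0626). Leaving a library out gave *Ly96* 0.77 to 1.03, *Irak4* 0.43 to 0.68 (called without replicate 4 of mono cells, adjusted p = 0.0391), *Tlr4* -0.017 to 0.41, negative without replicate 2 of mono cells, and *Ticam1* -0.46 to 0.017, positive without replicate 4 of mono cells. The cause of these changes was not tested beyond the smaller number of libraries. DESeq2's size factors moved the median of all genes by at most -0.024. *Cd14* and *Ly96* have no value between 3W cells and 2W cells with at least 10 counts in every library, since replicate 2 of 2W cells had 8 and 2 counts. At the 10 to 30 counts of *Tlr2* and 2 to 50 of *Ly96* in 2W cells and mono cells, small differences were not detectable, and an uncalled member is not shown to be unchanged. The replicate block changed no other call of a member.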
